A study of Mus musculus with 6 samples.

Results

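The Gadd45 family and a group of growth arrest genes of the p53 response were followed in mouse liver under a high-fat and a low-fat diet. The members were the probe sets of the deposited table whose gene symbol in the platform annotation is Gadd45a, Gadd45b, Gadd45g, Cdkn1a, Ccng1, Mdm2 or Bax and no other, which gave 8 of 12488 probe sets. They measure 6 of the 7 genes, out of 8252 genes with a probe set of their own on the array, Gadd45b and Cdkn1a with 2 probe sets each. Bax, a pore-forming protein of the Bcl2 family, had no probe set by this rule, and its expression is not analysed here. The genes were chosen by measured values of this same diet contrast. Their differences between the diets are therefore given as a description, and the adjusted p-values printed for them support nothing beyond where each stands in the fit.

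Total liver RNA came from C57BL/6 mice, an inbred strain widely used in diet studies. For 12 weeks the animals ate either a Western-style diet rich in fat (3 arrays) or a low-fat diet (3 arrays). Keywords of the labels name LDL receptor deficiency, but no label gives an altered genotype to any of the 6 samples, and age, sex and time of day are not given. The samples of each diet are labelled as replicates, but whether each is 1 mouse or a pool is not stated, so p-values measure the spread between these arrays. In RNA of whole liver, a change in the number of cells of a type and a change of RNA per cell cannot be told apart.

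GADD45 proteins are small acidic proteins without enzyme activity that are induced by DNA damage, cytokines and other stress. They bind the kinase MTK1 (Map3k4), which leads to activation of p38 and JNK, and they also bind the cyclin B kinase, PCNA and p21. The transcription factor p53 induces Cdkn1a, which encodes the CDK inhibitor p21, as well as Gadd45a, Ccng1, Bax and Mdm2, and Mdm2 in turn marks p53 for degradation. Gadd45b is best known as a target of NF-kB and TGF-beta signals, and Gadd45g as a gene induced by cytokines.

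Promoter windows are shown first for the members that the results turn on, the 3 Gadd45 genes, of which Gadd45g was called and Gadd45a and Gadd45b were not, and Cdkn1a, the classical p53 target. Each window runs from 250 bases before to 50 bases after a transcription start of the RefSeq annotation of GRCm38.p6, a build that the array files do not name. All 7 genes were matched by symbol in 8 windows, because Cdkn1a has 2 annotated starts. Capitals mark every match, on either strand, to any of the motifs searched. One was the CCAAT box, read by the letters of its name. The TATA box was read as TATAAA and was counted without degenerate letters. The core of the cAMP response element was read as TGACG. A GC box of the kind bound by Sp1 was read as GGGCGG. The E-box that clock and Myc-type factors bind was read as CACGTG. The p53 half-site and the NF-kB site were read by their degenerate consensus, and no matches of different motifs overlapped in these windows. The Gadd45a window is chr6:67037358-67037657 on the minus strand, that of Gadd45b is chr10:80929841-80930140 on the plus strand and that of Gadd45g is chr13:51846425-51846724 on the plus strand. The window of the upstream start of Cdkn1a is chr17:29090729-29091028 on the plus strand.
Gadd45a: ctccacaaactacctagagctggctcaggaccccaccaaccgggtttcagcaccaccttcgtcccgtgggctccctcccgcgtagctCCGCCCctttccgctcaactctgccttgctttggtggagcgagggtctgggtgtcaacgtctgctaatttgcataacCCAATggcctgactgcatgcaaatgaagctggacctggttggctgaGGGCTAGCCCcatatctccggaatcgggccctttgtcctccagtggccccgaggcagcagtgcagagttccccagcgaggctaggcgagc
Gadd45b: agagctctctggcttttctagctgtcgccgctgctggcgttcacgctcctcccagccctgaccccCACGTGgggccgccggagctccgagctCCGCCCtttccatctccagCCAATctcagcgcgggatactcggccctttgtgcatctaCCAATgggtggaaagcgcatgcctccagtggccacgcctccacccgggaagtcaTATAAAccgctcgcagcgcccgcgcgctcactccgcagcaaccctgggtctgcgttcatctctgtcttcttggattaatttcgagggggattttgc
Gadd45g: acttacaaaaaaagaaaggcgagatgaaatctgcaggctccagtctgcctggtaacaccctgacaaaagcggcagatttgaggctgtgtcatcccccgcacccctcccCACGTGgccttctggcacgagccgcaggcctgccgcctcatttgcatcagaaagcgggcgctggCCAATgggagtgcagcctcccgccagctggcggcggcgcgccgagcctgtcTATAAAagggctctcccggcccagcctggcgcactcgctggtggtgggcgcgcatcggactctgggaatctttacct
Cdkn1a: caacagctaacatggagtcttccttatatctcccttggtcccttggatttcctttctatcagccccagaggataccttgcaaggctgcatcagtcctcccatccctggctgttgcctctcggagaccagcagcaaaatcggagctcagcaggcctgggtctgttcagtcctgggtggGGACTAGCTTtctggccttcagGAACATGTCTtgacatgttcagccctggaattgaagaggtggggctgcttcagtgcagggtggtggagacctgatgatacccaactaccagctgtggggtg

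The 3 Gadd45 windows each held CCAAT, at bases -86 to -82 in Gadd45a, at -139 to -135 and -100 to -96 in Gadd45b, and at -78 to -74 in Gadd45g. CCAAT also lay in the windows of Ccng1 and Mdm2, and it occurs on either strand in 37.4% of the 32851 windows of this length in the table. Gadd45b and Gadd45g both held TATAAA, at -46 to -41 and -27 to -22, and both held CACGTG, at -185 to -180 and -142 to -137. Neither motif was found in the Gadd45a window, and over all windows TATAAA occurs in 13.6% and CACGTG in 7.15%. The window of Bax, which was not measured, held CACGTG at -9 to -4 and at 36 to 41. The p53 half-site consensus, present in 8.36% of all windows, was matched at -40 to -31 in Gadd45a and at -73 to -64 and -51 to -42 in the upstream Cdkn1a window. It was also matched at -185 to -176 in Ccng1, at -186 to -177 in Mdm2 and at -201 to -192 in Bax. It was not found in the windows of Gadd45b or Gadd45g or in the downstream Cdkn1a window, which held GGGCGG at -104 to -99 and -46 to -41. GGGCGG, found in 35.7% of all windows, also lay in those of Gadd45a and Gadd45b on the opposite strand, at 2 places in that of Mdm2 and in that of Bax. TGACG (20.8% of all windows) was found among the measured members only in Mdm2, and the NF-kB consensus (6.93%) in none of them. A match is a run of letters in this window and is not a measured site.

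**Figure D1:**
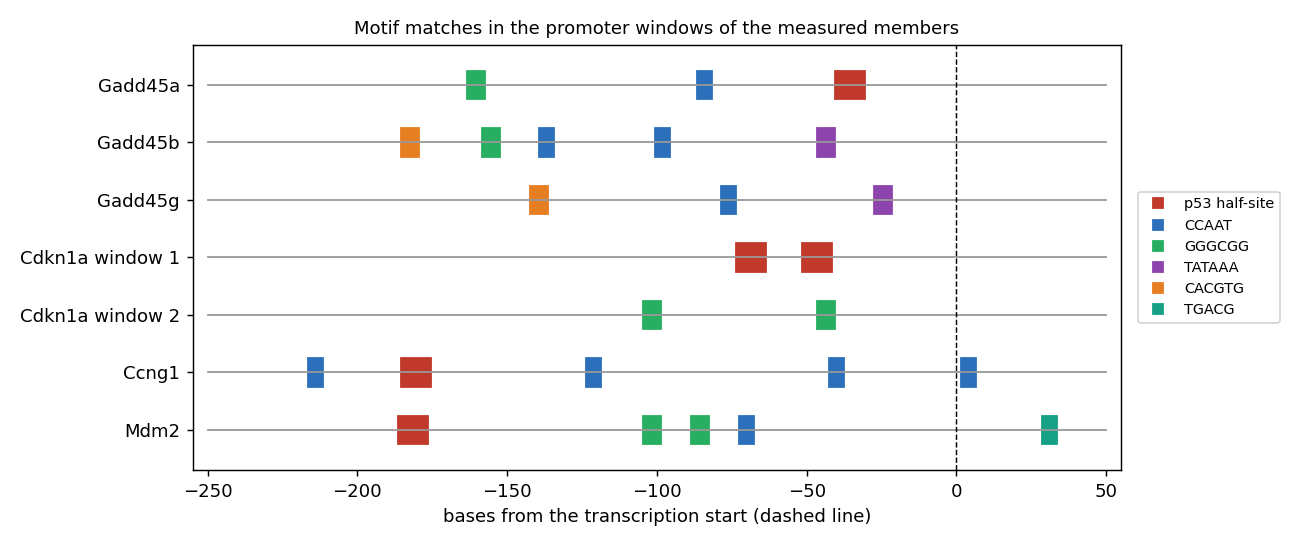
Position of each motif match (coloured blocks) in the 7 promoter windows of the measured members, in bases from the transcription start. CACGTG and TATAAA blocks appear in the Gadd45b and Gadd45g rows, and p53 half-site blocks in the Gadd45a, upstream Cdkn1a, Ccng1 and Mdm2 rows.

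Intensities are the deposited linear values, on arrays that all had a trimmed mean of 500.4. Values under 68.9, the 30th percentile of all intensities, were raised to that floor before log2 was taken, and 8950 probe sets with at least 3 of 6 arrays above it were tested. Log2 values of the tested probe sets correlated between arrays with r from 0.937 to 0.962, across probe sets, which are not independent replicates. Of the 8 member probe sets, 7 were tested. The remaining one, the Gadd45b probe set 161666_f_at, lay between 5.7 and 17.8 on all arrays. Among the 7 tested, 1 passed an adjusted p of 0.05 (limma, Benjamini-Hochberg over all tested probe sets), against 0.827% of all tested probe sets, or 0.402% counting only those higher on the high-fat diet. Because the members were chosen on this contrast, nothing is read from that count.

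**Figure D2:**
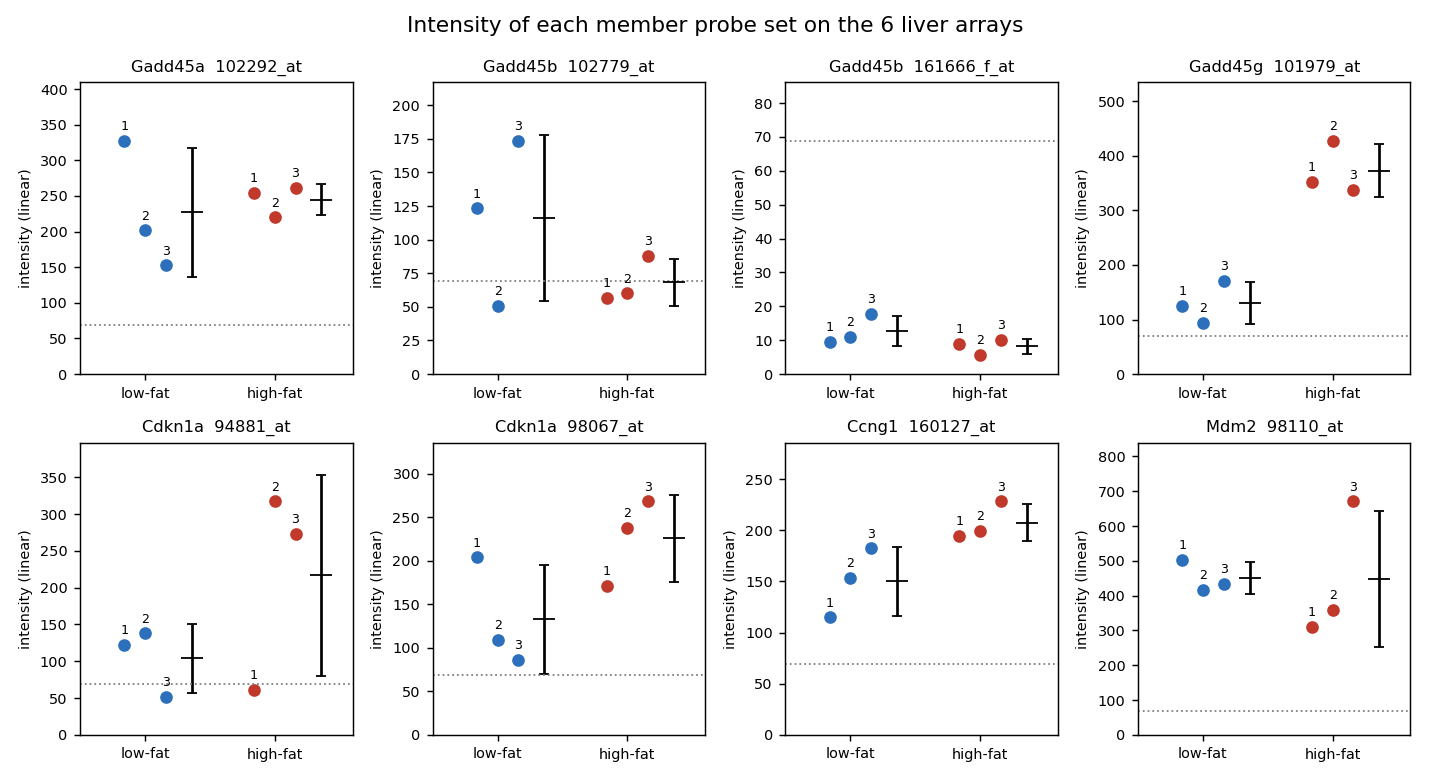
Linear intensity (vertical axis from 0) of the 8 member probe sets on the 3 low-fat (blue) and 3 high-fat (red) arrays, numbered as in the labels, with mean and SD in black and the floor of 68.9 dotted. The diets separate for Gadd45g and Ccng1 and overlap for the other 6 probe sets.

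Gadd45g was the member with the largest difference, and the diets did not overlap. Its intensity was 353, 428 and 338 on high-fat arrays 1, 2 and 3, and 125, 94.1 and 170 on low-fat arrays 1, 2 and 3. All 3 high-fat arrays were above all 3 low-fat arrays, and the lowest high-fat value was 1.98 times the highest low-fat value. The mean of the high-fat arrays was 373 ± 48.1 (SD, n = 3), and the low-fat arrays averaged 130 ± 38.4 (SD, n = 3). Gadd45g rose 2.94-fold on the high-fat diet, a log2 difference of 1.56 ± 0.28 (SE), with a limma adjusted p of 0.0436. By size of the difference it ranked 36th, and by p-value 69th, of the 8950 tested probe sets. The call was lost when any array other than low-fat array 3 was left out, with adjusted p-values up to 0.191, while the log2 difference stayed between 1.34 and 1.77. It was also lost with both arrays numbered 3 left out (log2 difference 1.84, adjusted p = 0.0608).

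Gadd45a, the member of the family that p53 induces, was not called. High-fat arrays 1 to 3 gave 254, 220 and 261, and low-fat arrays 1 to 3 gave 328, 202 and 153. The high-fat arrays lay inside the range of the low-fat arrays, of which array 1 was the highest and array 3 the lowest of all 6. The log2 difference was 0.18 ± 0.30 (SE), with an adjusted p of 0.938, and it turned to -0.073 without low-fat array 3. The spread was unequal, with a highest-to-lowest ratio of 2.15 on the low-fat against 1.19 on the high-fat diet.

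Gadd45b was near the floor. The probe set 102779_at gave 56.7, 60 and 88.1 on the high-fat arrays and 123, 50.9 and 174 on the low-fat arrays. Only high-fat array 3 and low-fat arrays 1 and 3 were above the floor, and the diets overlapped. The log2 difference was -0.61 ± 0.35 (SE), with an adjusted p of 0.703, and values on both diets were raised to the floor. With the floor at the 10th percentile it was -0.62, and with a constant of 50 added in place of the floor -0.42. It was -0.97 without low-fat array 2 (adjusted p = 0.477) and -0.55 without high-fat array 1 or 2. Without any one of the other 3 arrays too few values were above the floor for it to be tested. The values of 161666_f_at were 8.9, 5.7 and 10.1 on the high-fat and 9.4, 11 and 17.8 on the low-fat diet, with low-fat array 3 again the highest, and no fold is given because all lie under the floor.

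Cdkn1a was read by 2 probe sets that were both higher on average on the high-fat diet, though the arrays overlapped in both. With 98067_at its intensity was 171, 238 and 268 on the high-fat arrays and 204, 109 and 85.8 on the low-fat arrays. Low-fat array 1 reached above high-fat array 1, and the other low-fat arrays were below all high-fat arrays. The log2 difference was 0.84 ± 0.36 (SE), or 1.79-fold, with an unadjusted p of 0.0441 and an adjusted p of 0.532 in limma.

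The second Cdkn1a probe set, 94881_at, gave 61.1, 317 and 273 on the high-fat arrays and 123, 138 and 51.0 on the low-fat arrays. High-fat array 1 was under the floor, as was low-fat array 3, and high-fat arrays 2 and 3 were the highest of the 6. Its log2 difference of 0.79 ± 0.56 (SE), with an adjusted p of 0.774, rested on single arrays. Leaving out high-fat array 1 gave 1.48 (adjusted p = 0.170). Leaving out high-fat array 2 gave 0.38, high-fat array 3 gave 0.49 and low-fat array 3 gave 0.48. For 98067_at the range with 1 array left out was 0.57 to 1.20. With both arrays numbered 3 left out, the log2 differences were 0.44 for 98067_at and 0.19 for 94881_at. High-fat array 1 was the lowest high-fat array, and low-fat array 3 the lowest of all, in both probe sets.

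Ccng1, which encodes cyclin G1, a p53-induced partner of protein phosphatase 2A, was the other member whose diets did not overlap. High-fat arrays 1 to 3 gave 195, 199.6 and 228, and low-fat arrays 1 to 3 gave 115, 153 and 182. The gap was small, with the lowest high-fat value 1.07 times the highest low-fat value. The log2 difference was 0.49 ± 0.26 (SE), or 1.40-fold, with an adjusted p of 0.668, and it stayed between 0.31 and 0.64 with each array left out. Of all tested probe sets, 7.34% had high-fat arrays above all low-fat arrays. Gadd45g and Ccng1 are the 2 members of that kind, and 0 members lay lower without overlap, against 6.76% of all tested probe sets.

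Mdm2, the ubiquitin ligase that limits p53, had almost the same mean on both diets. Its values were 311, 360 and 671 on the high-fat arrays against 502, 416 and 434 on the low-fat arrays. High-fat array 3 was the highest and high-fat array 1 the lowest of all 6, so the low-fat arrays lay inside the high-fat range. The means were 447 ± 195 (SD, n = 3) and 451 ± 45.5 (SD, n = 3), and the log2 difference was -0.09 ± 0.28 (SE), with an adjusted p of 0.974. Its sign changed when high-fat array 1 (0.13) or high-fat array 2 (0.0245) was dropped, and dropping high-fat array 3 gave -0.42.

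**Figure D3:**
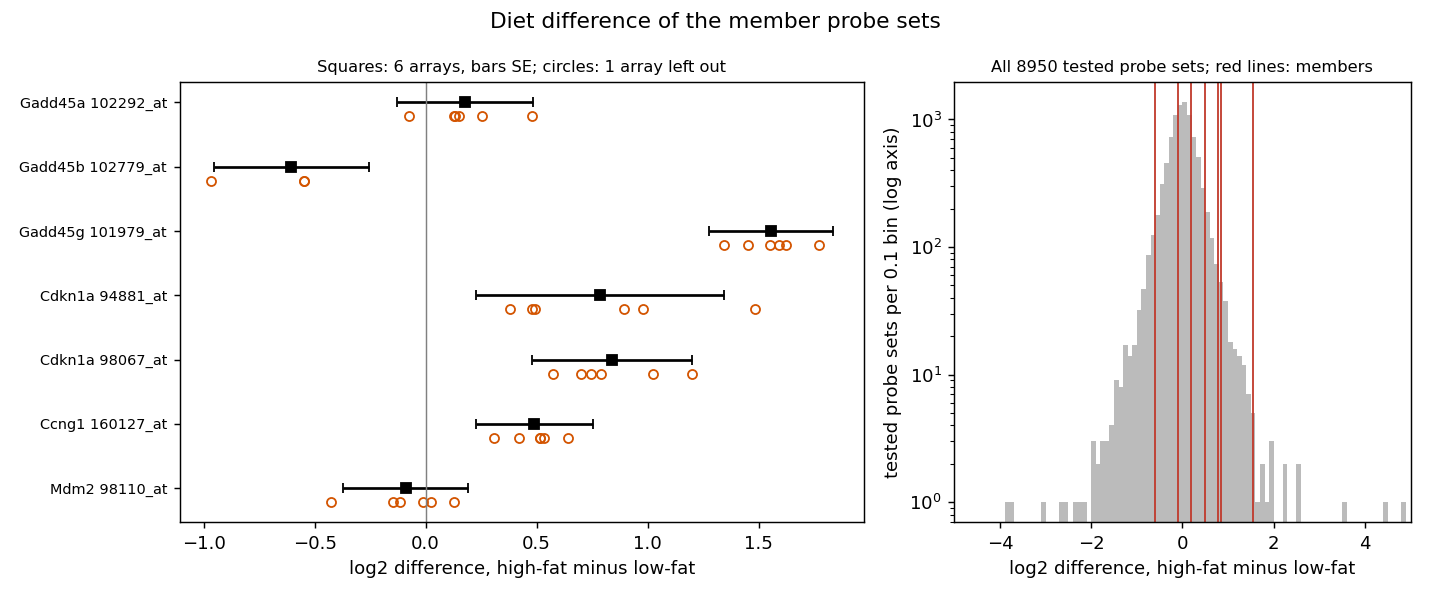
Left, log2 difference (high-fat minus low-fat, horizontal axis) of the 7 tested member probe sets with SE bars, and below each the values with 1 array left out (open circles; fits in which Gadd45b was not tested are absent). Right, histogram of the log2 difference of all 8950 tested probe sets on a log count axis with the members as red lines, where Gadd45g at 1.56 lies in the upper tail and Mdm2 at -0.09 near the centre.

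Within the family the log2 difference was 1.56 for Gadd45g, which passed, and 0.18 for Gadd45a and -0.61 for Gadd45b, which did not, and differences between the members were not tested. As log2 differences of the p53-induced members, Cdkn1a had 0.84 and 0.79, Ccng1 0.49 and Mdm2 -0.09. Of the 7 tested probe sets, 5 were above 0, and their median was 0.49, where 50.5% of all tested probe sets were above 0. These are descriptions of a chosen group.

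Summed marker intensities did not overlap between the diets for 2 lists that were higher and 1 that was lower on the high-fat diet. The summed intensity of Kupffer cell and macrophage markers (20 probe sets, 14 of 14 measured genes above the floor on some array) was 15032 to 17691 on the high-fat and 11048 to 14095 on the low-fat diet. That of markers of dividing cells (18 probe sets, 10 of 12 measured genes above the floor on some array, with Cdk1 and Top2a at or under it on all 6) was 2467 to 3210 on the high-fat and 3433 to 3530 on the low-fat diet. Of the 13 tested probe sets of the dividing cell list, 7 were above and 6 below 0, with a median log2 difference of 0.01. The 1 called was 96081_at of Tk1, the thymidine kinase gene, which fell by 0.76 on the log2 scale (limma adjusted p = 0.0415) from a mean intensity of 1130 to 670. That probe set alone gave 596 to 717 on the high-fat and 1089 to 1161.5 on the low-fat arrays. The separation of the summed dividing cell markers rested on it. The other tested Tk1 probe set, 161150_at, had a log2 difference of 0.46 (adjusted p = 0.745). Of the 15 tested macrophage and 22 tested acute phase probe sets, 0 were called, with an unadjusted p under 0.05 in limma for 5 and 6. Of all tested probe sets, 9.07% had such a p. Acute phase plasma proteins summed to 131893 to 164591 against 118858 to 131620, so the ranges nearly touched. Of the acute phase probe sets 16 were above and 6 below 0, and of the macrophage probe sets 14 were above and 1 below. The acute phase probe set with the smallest adjusted p, that of Hamp, was lower on the high-fat diet (log2 difference -1.15, limma adjusted p = 0.0947). The sums of the other 8 of the 11 marker lists, hepatocytes among them at 205481 to 275825 over all arrays, overlapped between the diets. All 9 measured hepatocyte markers were above the floor. The Gapdh 3' to 5' ratio, a sign of RNA quality, was 1.22, 1.23 and 0.89 on the high-fat and 1.04, 1.07 and 0.82 on the low-fat arrays (two-sided exact permutation p = 0.3, where 3 arrays against 3 cannot go below 0.1), and that of beta-actin differed with the same p of 0.3. The part of these marker sums and ratios in the values of Gadd45g, Cdkn1a and Ccng1 was not tested.

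The other genes of the pathway were taken from 8 lists, in which 126 of 161 genes had a probe set of their own and 129 probe sets of 107 genes were tested. Of these 129, 0 passed an adjusted p of 0.05 in limma and 19 had an unadjusted p under 0.05, or 14.7%, against 9.07% of all tested probe sets. Most of the 19 came from the Foxo and glucocorticoid list (7 of 20 tested) and the immediate early and NF-kB list (5 of 22 tested). Each of the other lists, those of p53 and GADD45 among them, held 0 to 3, and a probe set can stand in several lists. Among the 19, the high-fat mean was above the low-fat mean in 6 and below it in 13. The median log2 difference of the 129 was -0.04, with 58 above and 71 below 0. The alternative settings called between 0 and 4 of them. The gene of p53 itself, Trp53, had no probe set naming it alone and is not analysed here.

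Among p53 target genes beside the members, 0 of 23 tested probe sets passed, 12 were above 0 and 11 below, and the median was 0.04. Perp, a desmosomal protein induced by p53 in apoptosis, was nearest the threshold. Its values were 1874, 1866 and 2119 on the high-fat and 1156, 1445 and 1112 on the low-fat arrays, a log2 difference of 0.67 ± 0.14 (SE) with an adjusted p of 0.0784. Igfbp3, a binding protein of insulin-like growth factors, was read by 2 tested probe sets of opposite sign. The one with the smaller p, 95083_at, had a high-fat mean of 104 ± 35.5 (SD, n = 3), a low-fat mean of 245 ± 19.3 (SD, n = 3) and an adjusted p of 0.144. The other, 95082_at, had a log2 difference of 0.51 (adjusted p = 0.618). High-fat and low-fat arrays were apart for Perp and for 95083_at, and they overlapped for 95082_at.

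The regulators of p53 had 0 of 18 tested probe sets called and a median of 0.00. The ubiquitin ligase gene Cop1 had a log2 difference of -0.49 (adjusted p = 0.414) on 98379_r_at and of 0.08 on its other tested probe set. The checkpoint kinase gene Chek1 had one of 0.42 (adjusted p = 0.735). Of the GADD45 partners of the p38 and JNK pathway, 0 of 13 were called, with a median of -0.04. Map2k6, a kinase that activates p38, was at 97.5, 54.4 and 43.4 on the high-fat against 115, 128 and 150 on the low-fat arrays with 102828_at (log2 difference -0.75, adjusted p = 0.394), and its other tested probe set had a log2 difference of -0.18. Mapkapk2, a substrate of p38, had log2 differences of 0.23 on 95721_at (adjusted p = 0.640) and of -0.50 on 160353_i_at (adjusted p = 0.797).

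Cyclins, cyclin-dependent kinases and Pcna had 0 of 19 called and a median of -0.03. Ccng2, the relative of Ccng1, was at 464, 419 and 445 on the high-fat and 283, 290 and 352 on the low-fat arrays. All its high-fat arrays were the higher ones, and the log2 difference of 0.53 ± 0.19 (SE) had an adjusted p of 0.403. Ccna2, cyclin A2, which acts in DNA replication and mitosis, was at 77.4, 77.4 and 105 against 452, 135 and 131, with low-fat array 1 far above the rest (adjusted p = 0.447). The other CDK inhibitors had 3 tested probe sets, 0 called and 3 below 0. Cdkn2d had a log2 difference of -0.70 (adjusted p = 0.713), Cdkn2c one of -0.15 (adjusted p = 0.895) and Cdkn1c one of -0.1 (adjusted p = 0.969). The member Cdkn1a, also a CDK inhibitor gene, was at 0.84 and 0.79 with its 2 probe sets and was not called either.

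In the Bcl2 family beside Bax, 0 of 16 were called and the median was -0.04. The pro-apoptotic gene Bok was at 640.0, 742 and 756 on the high-fat and 556, 436 and 424 on the low-fat arrays, with an adjusted p of 0.253, and Bcl2l11, which encodes Bim, had log2 differences of -0.85 on 100988_at (adjusted p = 0.602) and of -0.03 on its other tested probe set.

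Immediate early and NF-kB response genes had 0 of 22 called and a median of -0.19. The high-fat arrays were all lower in 6 of the 22, where 6.76% of all tested probe sets were, and all higher in 2, against 7.34%. Zfp36, which encodes an mRNA-destabilising protein, was at 1357, 822 and 1050 on the high-fat against 2143, 1646 and 2400 on the low-fat arrays (adjusted p = 0.0925). Nfkbia, the NF-kB inhibitor and target, was at 489, 500 and 536 against 645, 917 and 858 with 104149_at (log2 difference -0.65, adjusted p = 0.212), and its other tested probe set had a log2 difference of -0.13.

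Foxo and glucocorticoid response genes had 0 of 20 called, a median of -0.34 and 14 below 0. The gluconeogenic enzyme gene Pck1 was at 3625, 2939 and 3525 on the high-fat against 4802, 6069 and 6487 on the low-fat arrays, with a log2 difference of -0.78 ± 0.15 (SE) and an adjusted p of 0.0560. Tat, the tyrosine aminotransferase gene, had a log2 difference of -0.79 ± 0.16 (SE) and an adjusted p of 0.0742. The highest point of the list was Lcn2 (160564_at), an acute phase protein gene named after its value was seen, with a log2 difference of 2.52 ± 0.85 (SE) and an adjusted p of 0.381. Its arrays were 115, 468 and 2127 against 118, 30.5 and 74.4, so high-fat array 3 stood far above the rest. Without high-fat array 1 the log2 difference was 3.56 (adjusted p = 0.0406), and the other tested Lcn2 probe set, 161684_r_at, was at -0.04. None of them passed with the 6 arrays. Under some of the alternative settings Pck1, Tat and Zfp36 were called, as was Perp at an adjusted p of 0.10.

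**Figure D4:**
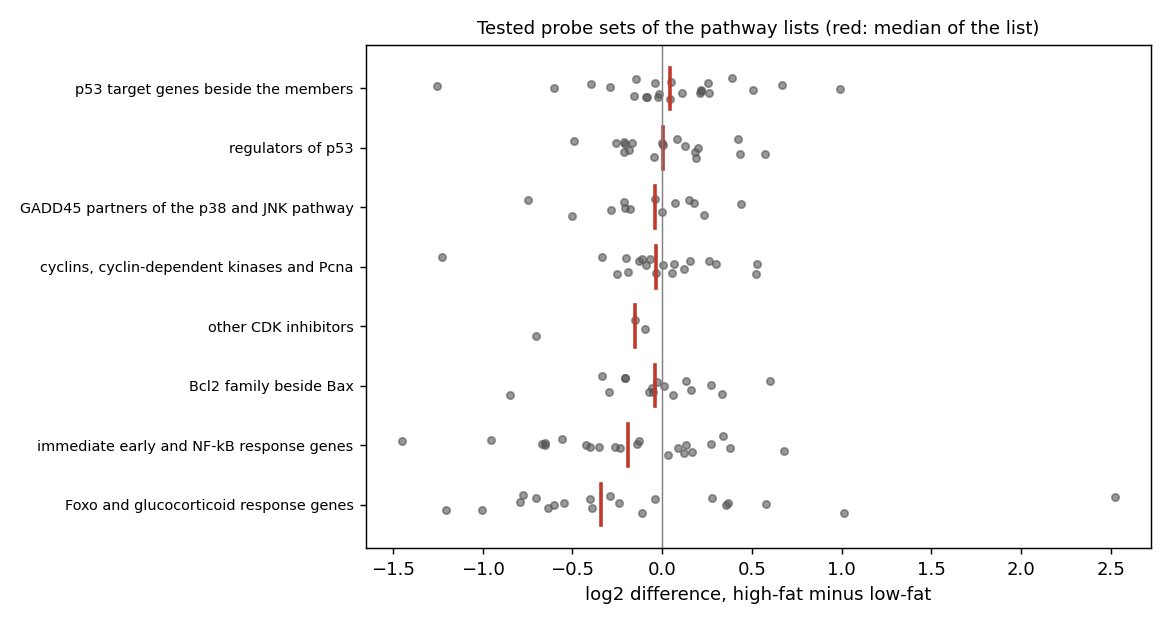
Log2 difference (high-fat minus low-fat, horizontal axis) of each tested probe set (points, spread vertically only for legibility) in the 8 pathway lists, with the median of each list in red. Medians lie between -0.34 and 0.04, and 0 of the 129 distinct probe sets passed the threshold.

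The genes whose pattern over the 6 arrays was nearest to each member were found by the root mean square difference between log2 values, each centred on its own mean, among 7974 tested single-gene probe sets. With 6 arrays and so many candidates a near match is always found, so these are descriptions. Nearest to Gadd45g were E2f8, an atypical E2F repressor, at 0.200, Elovl5, a fatty acid elongase, at 0.223 and Cdcp1, a membrane glycoprotein, at 0.247, where the median over all candidates was 0.858. All 3 had a higher mean on the high-fat diet, with log2 differences of 1.24 (adjusted p = 0.107), 1.40 (adjusted p = 0.00242) and 1.37 (adjusted p = 0.0203). The other tested E2f8 probe set had a log2 difference of 0.43. Nearest to Gadd45a were Irf7 and the DNA damage kinase gene Atm, both at 0.083, and Ints14 at 0.098, each of which was also highest on low-fat array 1 and lowest on low-fat array 3. Nearest to Gadd45b were Rhd at 0.041, Ugcg at 0.066 and Acsl4 at 0.126. Nearest to the Cdkn1a probe set 98067_at were the scaffold protein gene Iqgap1 at 0.140, Crip1 at 0.167 and Shh at 0.195. All were low on low-fat arrays 2 and 3, as that probe set was. The other Cdkn1a probe set, 94881_at, was not used here and gave 123, 138 and 51.0 on low-fat arrays 1 to 3. Part of the values lay under the floor, and counts as the floor in this measure, for E2f8, Rhd, Ugcg, Iqgap1, Crip1 and Shh. Gadd45b itself was under the floor on high-fat arrays 1 and 2 and low-fat array 2, as Rhd was, so both genes stood at the floor on these arrays.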

How the data were processed

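Liver RNA of 6 mouse samples was measured on Affymetrix arrays of 12488 probe sets. The authors deposited 1 linear intensity per probe set and array. For background correction, scaling and software, the processing was not given in the sources used here. Deposited values share 1 trimmed mean on all arrays (2% cut at each end), and this scaling was kept. Gene symbols came from the platform annotation (10855 with 1 symbol, 396 with several, 1237 not listed). After removal of 66 control probe sets, the difference high-fat minus low-fat was fitted in limma 3.58.1 under R 4.3.3 by lmFit and eBayes, whose prior variance followed intensity, two-sided. Folds are on the floored log2 scale and can understate changes near the floor. The number of arrays limits the precision.

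The members, gene lists, test and alternatives were chosen with earlier results of these data known. Named list genes are up to 4 past the threshold by smallest p or, where fewer than 2 passed, the 2 with the smallest p. Lcn2 and Cdkn1c, the highest of their lists, were named in addition after their values were seen. So were the other probe sets above 0 of the Foxo and glucocorticoid list. No other highest and no lowest probe set of a pathway list was added in this way. No set test was run. Tested on simulated data for this comparison (10 runs of 8950 probe sets, 200 changed), the fit found 38.6% of log2 changes of 1 and 89.6% of those of 2, and 4.42% of its calls were false. The simulated noise was normal and independent between arrays, with variances drawn from the prior of the same fit. A false share near the threshold was therefore built in, and it does not measure the false share among the calls on the real arrays. Comparisons of single values used exact permutation tests in scipy 1.17.1. Promoter windows are from RefSeq, GRCm38.p6. Alternatives were another scaling, floor, filter, variance model, array weights, a replicate block, arrays left out, suffixed probe sets left out and a threshold of 0.10.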

Additional observations from a re-analysis of the deposited data

How the results depend on the processing

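The call of Gadd45g was kept under 10 of 20 alternatives and lost under the other 10, with adjusted p-values from 0.0149 to 0.249 and log2 differences from 1.03 (floor at the 50th percentile) to 1.84, all above 0. The count of called member probe sets was 0 with the floor at the 10th percentile, with no filter, without the variance trend, with the replicate number as a block and with both arrays numbered 3 left out, and 0 to 1 with each array left out. The count of called pathway probe sets, 0 in the report, was 1 with quantile normalization, robust estimation, array weights or suffixed probe sets left out. It was 2 with the floor at the 50th percentile, with all 6 arrays above the floor or with the replicate block, 4 at an adjusted p of 0.10, and 0 to 3 with each array left out. Those called were Pck1, Tat, Zfp36, Perp and, without high-fat array 1, Lcn2. Differences turned sign for Mdm2 without high-fat array 1 (0.13) or 2 (0.0245), and for Gadd45a without low-fat array 3 (-0.073) or both arrays numbered 3 (-0.12). With each array left out, the log2 difference of Mdm2 ran from -0.42 to 0.13, that of Gadd45a from -0.073 to 0.48, and that of Gadd45b from -0.97 to -0.55 in the 3 such fits that tested it. The signs of Gadd45b, Ccng1 and both Cdkn1a probe sets held in every alternative that tested them. Over all probe sets the calls, 74 in the main setting, ranged from 8 without a filter to 120 at an adjusted p of 0.10. The cause was not tested. Deviations of same-numbered arrays correlated at 0.071, 0.11 and 0.306, and 4 of 6 arrays were closest to their own number. Whether the numbers mark pairs is not settled by these values, and the main fit did not pair them. With the replicate block 103 of all tested probe sets were called, and Gadd45g had an adjusted p of 0.0617 in limma.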
